A study of Homo sapiens with 4 samples.

Results

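Lysosome and autophagy genes were described in lung adenocarcinoma (LAD) cells with constitutively active AKT1. The 40 genes were chosen by name and by what they encode. Earlier results of these data were known at that time, so shares set beside those of all genes are descriptions. The 40 genes are the TFEB-family factors, lysosomal enzymes and membrane proteins, subunits of the proton pump and autophagy proteins. They make up 40 of the 60558 gene identifiers in the data, and all 40 were found and measured in every library. The study transduced A549 and HCC827 cells, both established LAD lines, with myr-AKT1, an AKT1 carrying a myristoylation signal that places the kinase at membranes, or with empty vector. Each of the resulting populations, A549-myr-AKT1 with its control A549-vector and HCC827-myr-AKT1 with its control HCC827-vector, gave 1 RNA library and no replicate. The 4 libraries held between 16322183 and 33530317 reads in genes. Whether the transduced cells were pools or clones, and how long after transduction RNA was taken, was not given in the sources used here.

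Lysosomes break down material delivered by endocytosis and autophagy with acid hydrolases, which work at the low pH set by the V-ATPase proton pump. TFEB, TFE3 and MITF are related transcription factors that bind E-box sites in the promoters of many of these genes. The kinase mTORC1, which acts downstream of AKT, phosphorylates TFEB and TFE3 at the lysosome and holds them in the cytoplasm. AKT also phosphorylates the FOXO factors, which are known to induce autophagy genes when they are in the nucleus. In autophagy, ULK1 starts the process, WIPI proteins mark the forming membrane, LC3 and GABARAP proteins are attached to it, and receptors such as SQSTM1 bring in the cargo.

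The core E-box of these factors is CACGTG, and 4 promoters are shown because they span the range of that site and of the response among the genes: LAMP1 with the most sites, MCOLN1 with sites and less RNA in myr-AKT1 cells, GAA with sites and more RNA, and WIPI1 with no site and the largest fold change of the 40 in HCC827. The sequences are from RefSeq (GRCh38.p14), run 5′ to 3′ on the strand of the gene, and carry CACGTG in capitals. LAMP1 is at chr13:113296989-113297238 (+), MCOLN1 at chr19:7522374-7522623 (+), GAA at chr17:80101331-80101532 (+) and WIPI1 at chr17:68457514-68457746 (-). Each starts 250 bases before the start of the gene, and bases in annotated exons are left out (48 for GAA and 17 for WIPI1).
LAMP1: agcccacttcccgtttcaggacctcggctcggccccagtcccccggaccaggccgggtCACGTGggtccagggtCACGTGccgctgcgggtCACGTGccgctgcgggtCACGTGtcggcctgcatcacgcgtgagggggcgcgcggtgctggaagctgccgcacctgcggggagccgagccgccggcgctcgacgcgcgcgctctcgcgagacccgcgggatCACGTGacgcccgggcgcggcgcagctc
MCOLN1: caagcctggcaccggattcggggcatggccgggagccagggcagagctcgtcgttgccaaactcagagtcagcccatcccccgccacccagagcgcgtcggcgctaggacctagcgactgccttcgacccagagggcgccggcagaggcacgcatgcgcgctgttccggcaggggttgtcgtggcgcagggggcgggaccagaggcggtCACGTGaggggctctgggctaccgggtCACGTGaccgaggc
GAA: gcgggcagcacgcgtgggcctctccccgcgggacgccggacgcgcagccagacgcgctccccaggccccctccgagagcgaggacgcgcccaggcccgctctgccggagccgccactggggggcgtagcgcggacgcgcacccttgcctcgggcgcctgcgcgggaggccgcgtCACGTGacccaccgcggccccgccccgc
WIPI1: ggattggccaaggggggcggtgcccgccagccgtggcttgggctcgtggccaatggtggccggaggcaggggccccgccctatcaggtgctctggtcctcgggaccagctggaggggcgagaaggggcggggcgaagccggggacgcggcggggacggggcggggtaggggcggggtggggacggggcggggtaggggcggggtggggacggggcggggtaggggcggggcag

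In A549 cells, most lysosome and autophagy genes had more RNA with myr-AKT1. The median log2 fold change of the 40 genes was 0.82, against -0.03 for the 18750 genes whose normalized counts (reads divided by the size factor of the library) averaged 10 or more. Of the 40 genes, 35 had a positive log2 fold change (87.5%, against 48.2% of all genes). The 95% counting interval lay above 0 for 33 of the 40 genes, where 33.3% of all genes did so, and below 0 for 5 genes, where 36.5% of all genes did so. In all, 9 genes were more than 2-fold higher, against 15.1% of all genes, and 0 were more than 2-fold lower, against 9.87% of all genes. Abundant genes have narrower intervals and smaller fold changes, and the share of all genes past 2-fold higher was 6.81% among those with a mean of at least 500, where 7 of 35 of the listed genes passed it, and the interval was above 0 for 33.9% of those genes and 29 of the 35. Most of the higher genes thus lay under 2-fold. Each condition had 1 library, so the intervals cover counting error only and these differences have no replicate check.

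HCC827 cells gave a similar picture. The median log2 fold change was 0.62, against -0.04 for all 17358 genes, and 34 of the 40 genes were positive (85.0%, against 48.1% of all genes). The counting interval lay above 0 for 32 genes (33.5% of all genes) and below 0 for 4 (37.1% of all genes). In all, 10 genes were more than 2-fold higher (14.1% of all genes) and 0 were more than 2-fold lower (12.4% of all genes). Among genes with a mean of at least 500, 7 of 34 listed genes and 7.01% of all genes were more than 2-fold higher, and the interval was above 0 for 27 of the 34 and 36.8%.

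**Figure D1:**
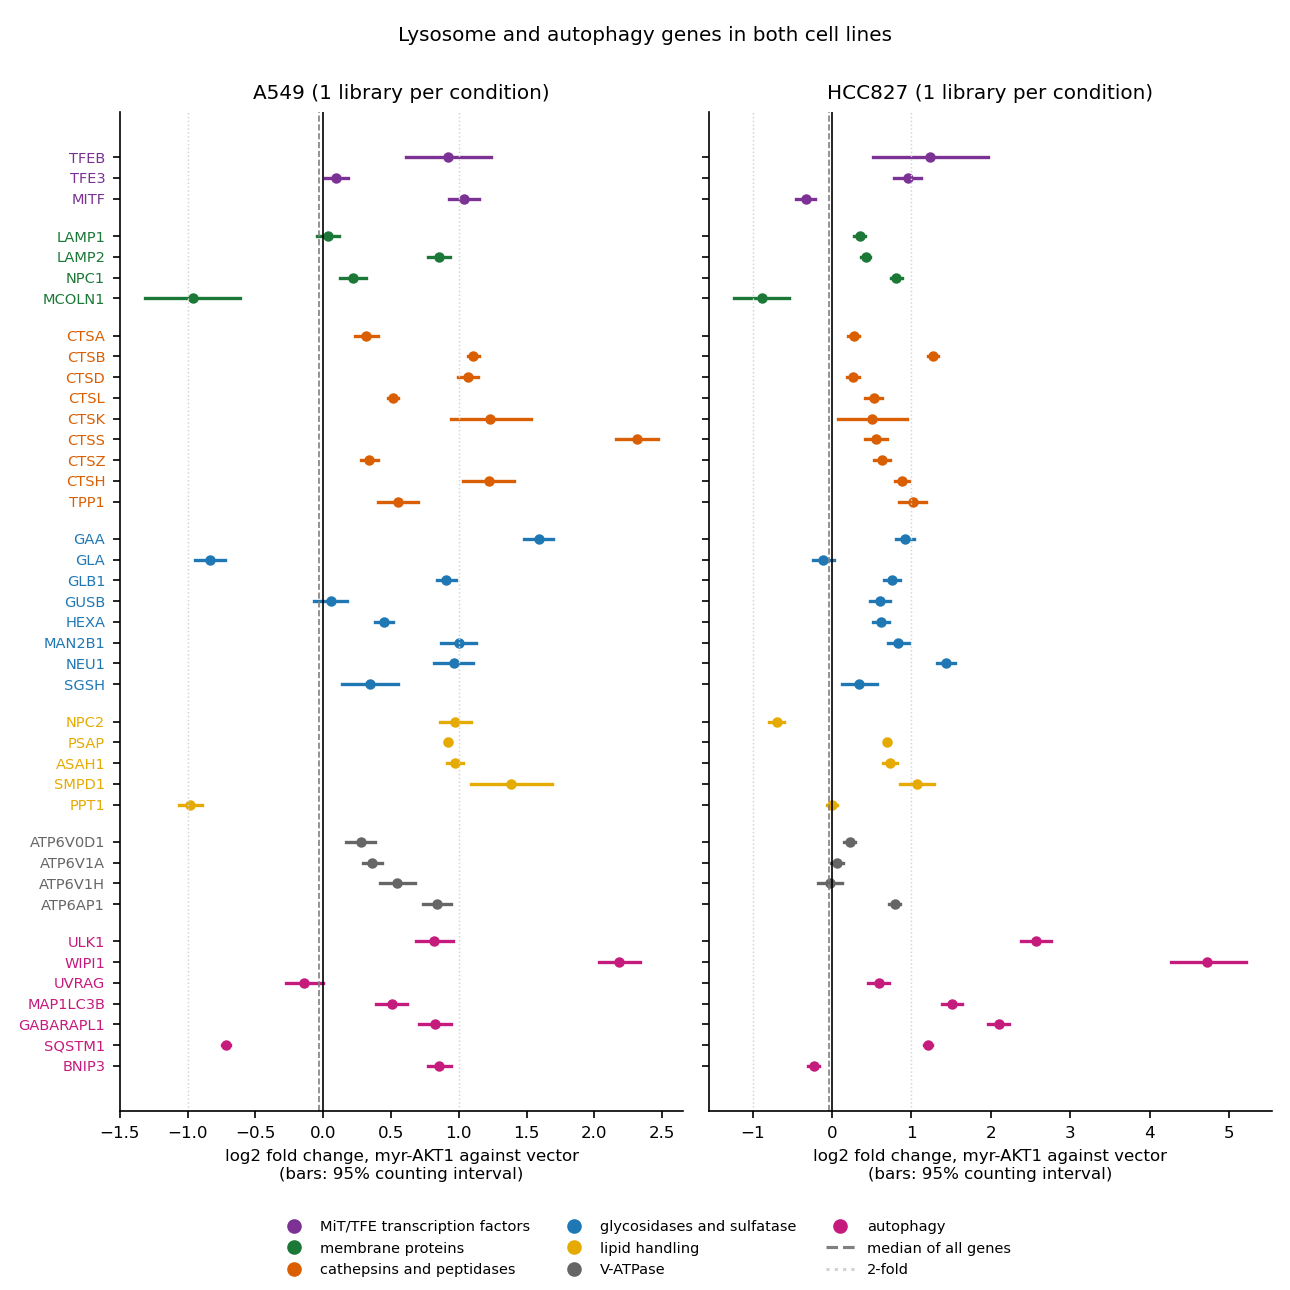
Log2 fold change of each of the 40 genes, myr-AKT1 against vector, in A549 (left) and HCC827 (right); points are the ratio of 1 library to 1 library, bars are 95% counting intervals, colours give the group of the gene, the dashed line is the median of all genes and dotted lines mark 2-fold. In A549 33 intervals lie above 0 and in HCC827 32, with WIPI1 the highest in HCC827 at 4.72 and MCOLN1 below 0 in both.

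Both lines shared the direction for 33 of the 40 genes (82.5%, against 65.7% of 15704 genes measured in both). For 31 genes the value was positive in both lines (77.5%, against 29.3%). The counting interval was above 0 in both lines for 28 genes (18% of all genes), below 0 in both for 1 gene, MCOLN1 (24.1% of all genes), and on opposite sides of 0 for 5 (14.7% of all genes). Of the 40, 3 genes, CTSB, WIPI1 and SMPD1, were more than 2-fold higher in both (4.6% of all genes) and 0 were more than 2-fold lower in both (4.08% of all genes). Over the 40 genes, Pearson's r between the A549 and the HCC827 values was 0.44 and Spearman's rho 0.29, and without WIPI1 these were 0.29 and 0.24. These are correlations across genes, which are not independent replicates, and over all genes the values were 0.43 and 0.42.

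**Figure D2:**
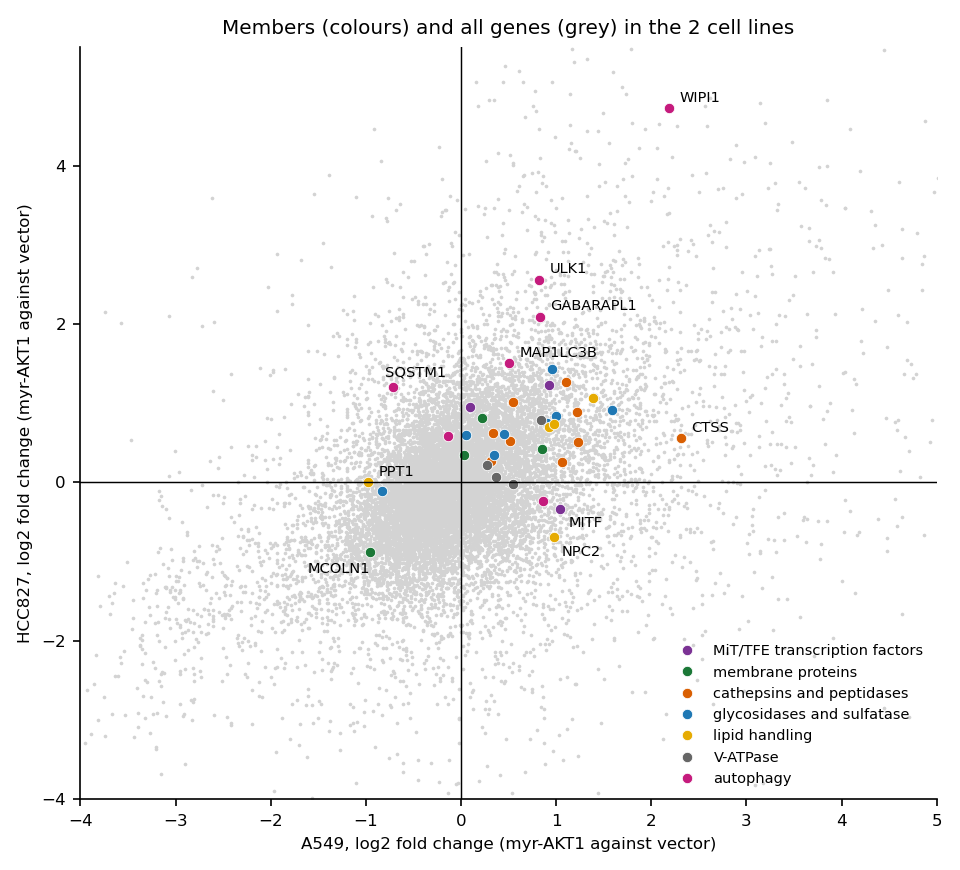
Log2 fold change in A549 (horizontal) against HCC827 (vertical); coloured points are the 40 genes by group and grey points are other genes measured in both lines, without those beyond the axes. Most coloured points, 31 of 40, lie in the upper right, where both lines had more RNA with myr-AKT1.

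**Figure D3:**
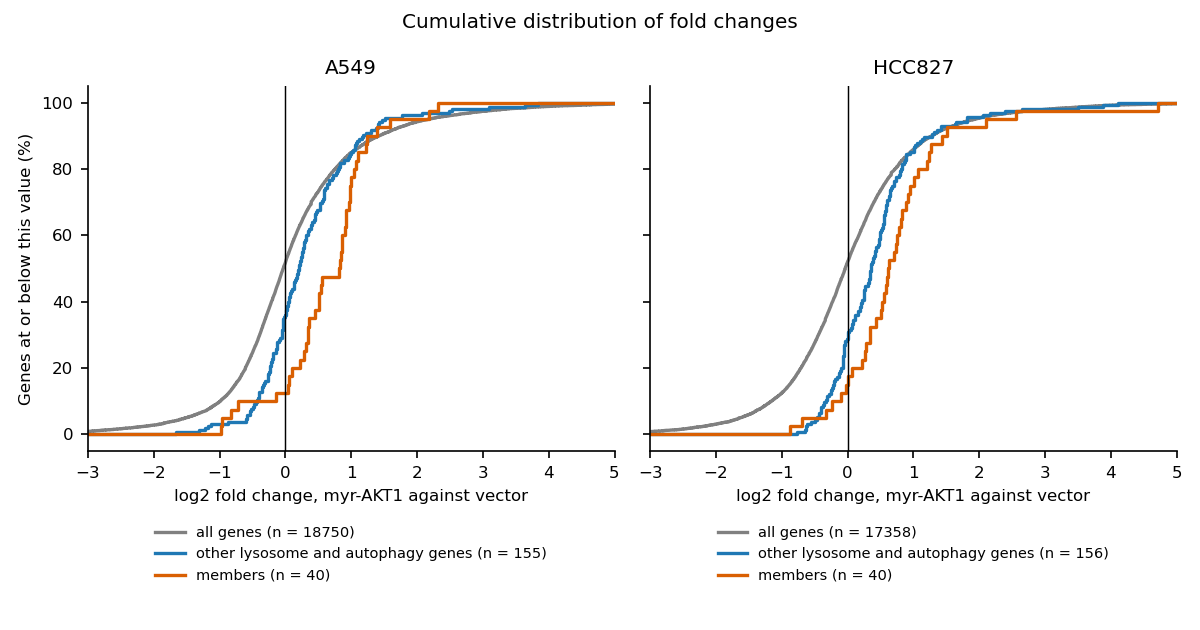
Share of genes (vertical, percent) at or below a given log2 fold change (horizontal) in A549 (left) and HCC827 (right), for the 40 genes, the other listed lysosome and autophagy genes, and all genes with an average of 10 normalized counts or more. The curve of the 40 genes lies to the right of that of all genes around the middle, with medians of 0.82 against -0.03 in A549 and 0.62 against -0.04 in HCC827.

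A limma fit over both lines, on the log2 scale after adding 1 to each normalized count and with a term for the line, used the 2 lines as the replication and had 1 residual degree of freedom. Of 19314 genes it called 250 higher (1.29%) and 335 lower (1.73%) at an adjusted p under 0.05. Of the 40 genes it called 2 higher and 0 lower. WIPI1 rose with a log2 fold change of 3.43 ± 0.558 (SE, limma adjusted p = 0.0261), and CTSB rose with 1.19 ± 0.241 (SE, limma adjusted p = 0.0452). WIPI1 also passed under 4 of the 6 other settings of the fit, with an adjusted p between 2.28e-16 and 0.999999 over all settings, and CTSB under 2 of them, with an adjusted p between 8.96e-05 and 0.999999. Without adjustment, 18 of the 40 genes had a p under 0.05 (45.0%, against 18.4% of all genes) and all 18 were positive. Of all genes, 3557 had such a p, 1772 of them positive and 1785 negative. The fit gave 37 of the 40 genes a positive value, against 9355 of all 19314 genes. Apart from WIPI1 and CTSB, the other 38 genes did not pass the adjusted threshold.

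The 3 transcription factors were present at very different levels. The values that follow are normalized counts unless a scale is named, given first for myr-AKT1 and then for vector, and they compare a gene between the libraries of 1 line. TFEB, the best studied of them, had 238 with myr-AKT1 and 126 with vector in A549 cells, and 54.1 and 23.0 in HCC827 cells, with log2 fold changes of 0.92 (95% interval 0.61 to 1.24) and 1.23 (0.52 to 1.96). TFE3, its relative, had 2243 and 2097 in A549 and 827 and 428 in HCC827, a log2 fold change of 0.10 and 0.95. MITF, known as the melanocyte factor, had 2013 and 979 in A549 and 1017 and 1279 in HCC827. TFEB was thus higher with myr-AKT1 in both lines, TFE3 was higher mainly in HCC827, and MITF was higher in A549 (1.04) and lower in HCC827 (-0.33). Per length, TFEB was the scarcest of the 40 genes in both HCC827 libraries, at an RPKM (reads per kilobase of exon, scaled to depth) of 0.392 and 0.158. These values are RNA levels and do not show where the proteins are or whether they are phosphorylated.

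Of the 4 membrane proteins, MCOLN1 was the one gene of all 40 that was lower in both lines beyond counting error. MCOLN1, a lysosomal calcium channel also called TRPML1, had 111 with myr-AKT1 and 216 with vector in A549 cells, and 121 and 223 in HCC827 cells. The log2 fold changes were -0.96 (-1.31 to -0.61) and -0.88 (-1.23 to -0.54), just short of 2-fold, and limma did not call the gene (log2 fold change -0.91, SE 0.433, adjusted p = 0.317). The lysosomal coat proteins LAMP1 and LAMP2 and the cholesterol exporter NPC1 were higher or level. LAMP2 had 3431 and 1898 in A549 and 5822 and 4329 in HCC827 (0.85 and 0.43 on the log2 scale). LAMP1 in A549 had 0.04, with an interval from -0.04 to 0.12, and in HCC827 0.35, and NPC1 had 0.22 and 0.81.

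The listed cathepsins and TPP1, peptidases of the lysosome, were the most uniform group of the 40 genes. The counting interval of all 9 lay above 0 in both lines, against 18% of all genes measured in both. The median log2 fold change of the 9 was 1.07 in A549 and 0.56 in HCC827. CTSB, a cysteine cathepsin, had 15892 with myr-AKT1 and 7376 with vector in A549 cells, and 6807 and 2817 in HCC827 cells. Its log2 fold changes were 1.11 (1.07 to 1.15) and 1.27 (1.21 to 1.33), so the increase had nearly the same size in the 2 lines. CTSS, a cysteine cathepsin known from antigen-presenting cells, had 1908 and 384 in A549 and 1070 and 726 in HCC827, 4.97-fold and 1.47-fold higher. CTSK, known from osteoclasts, had 308 and 131 in A549 and 109 and 77.1 in HCC827. CTSD, the main aspartic cathepsin, had 4432 and 2117 in A549 and 3026 and 2526 in HCC827. These 3 genes were more than 2-fold higher in A549 and less in HCC827, as was CTSH, an aminopeptidase (1.22 and 0.89 on the log2 scale). TPP1, a tripeptidyl peptidase, went the other way, with log2 fold changes of 0.55 and 1.01. CTSL, CTSZ and the carboxypeptidase CTSA, which also protects the sialidase NEU1, had log2 fold changes between 0.28 and 0.63 in both lines. Cathepsins outside the 40 genes were less uniform. CTSV had -1.66 (-1.93 to -1.41) in A549 and -0.06 (-0.19 to 0.06) in HCC827. CTSC (0.81 and 0.89), CTSF (1.18 and 0.74) and CTSO (2.48 and 0.39) had intervals above 0 in both lines.

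Because CTSS and CTSK are also abundant in blood-derived cells, markers of myeloid cells were read beside them. TYROBP and AIF1 had 0 reads in all 4 libraries and PTPRC between 0 and 8.02 normalized counts. CD14 was higher with myr-AKT1, at 784 and 34.9 in A549 and 85.6 and 15.9 in HCC827, and ITGAM had 120 and 41.9 in A549 and 2.52 and 1.59 in HCC827. CSF1R had 1.15 and 1.75 in A549 and 57.9 and 57.2 in HCC827, and MARCO had 0 and 0 in A549 and 5.03 and 0 in HCC827. The 6 epithelial markers, EPCAM, CDH1 and the keratins KRT7, KRT8, KRT18 and KRT19, were all found in every library, the lowest being KRT19 in A549-vector cells at 332. Of the 6 fibroblast markers, COL1A1 had 765 and 76.8 in A549 and 179 and 44.5 in HCC827, LUM had 348 and 22.7 in A549 and 1.26 and 0.795 in HCC827, and the other 4 were at or below 43.5 in every library. The part of these genes in the cathepsin values was not tested.

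Of the 7 glycosidases and the sulfatase SGSH, 6 of these 8 genes had an interval above 0 in A549 and 7 in HCC827, and the median log2 fold change was 0.68 in both. GAA, the acid glucosidase that degrades glycogen in lysosomes, had 2806 with myr-AKT1 and 933 with vector in A549 cells, and 1879 and 994 in HCC827 cells, with log2 fold changes of 1.59 (1.48 to 1.69) and 0.92 (0.81 to 1.03). NEU1, the lysosomal sialidase, had 1136 and 583 in A549 and 2074 and 765 in HCC827 (0.96 and 1.44 on the log2 scale). GAA had the larger difference in A549 and NEU1 in HCC827. The galactosidase GLB1 (0.91 and 0.75), the mannosidase MAN2B1 (0.999 and 0.83), the hexosaminidase subunit HEXA (0.45 and 0.62) and SGSH (0.35 and 0.34) had higher RNA in both lines by log2 fold change. GUSB, the glucuronidase, had 0.06 and 0.60, the first with an interval across 0. GLA, the alpha-galactosidase, was the exception, with 1100 and 1959 in A549 and 998 and 1074 in HCC827 (-0.83 and -0.11).

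Genes for the handling of lipids were divided. PSAP, the precursor of the saposins that help hydrolases reach their lipids, had 42966 with myr-AKT1 and 22682 with vector in A549 cells, and 21884 and 13490 in HCC827 cells (0.92 and 0.70 on the log2 scale). SMPD1, the acid sphingomyelinase, had 331 and 127 in A549 and 535 and 254 in HCC827, with log2 fold changes of 1.39 (1.09 to 1.68) and 1.07 (0.86 to 1.29). ASAH1, the acid ceramidase, had log2 fold changes of 0.97 and 0.73. These 3 enzymes and cofactors of sphingolipid breakdown were higher in both lines. NPC2, the soluble partner of NPC1 in cholesterol release, had 1753 and 892 in A549 and 1632 and 2641 in HCC827, higher in A549 (0.97) and lower in HCC827 (-0.69). PPT1, a thioesterase that removes palmitate from proteins, had 1722 and 3396 in A549 and 4438 and 4423 in HCC827, about 2-fold lower in A549 (-0.98) and level in HCC827, with an interval from -0.06 to 0.07.

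The 4 V-ATPase genes had small differences. Their median log2 fold change was 0.46 in A549, with all 4 intervals above 0, and 0.15 in HCC827, with 2 above 0. ATP6AP1, an accessory subunit, had 2064 and 1155 in A549 and 3871 and 2243 in HCC827, the largest difference of the 4 (0.84 and 0.79). The pump subunits ATP6V0D1, ATP6V1A and ATP6V1H had log2 fold changes of 0.28, 0.36 and 0.55 in A549 and 0.23, 0.07 and -0.02 in HCC827.

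More of the 7 autophagy genes among the 40 passed 2-fold in HCC827 than in A549. Of these 7, 1 was more than 2-fold higher in A549 (15.1% of all genes) and 5 in HCC827 (14.1%). Their median log2 fold change was 0.82 in A549 and 1.51 in HCC827. Core autophagy genes outside the 40 passed less often, 3 of 40 in A549 and 2 of 41 in HCC827. Of other autophagy receptors and regulators, 5 of 15 passed in A549 and 5 of 14 in HCC827. WIPI1, which binds phosphoinositides on the forming autophagosome, had 1910 with myr-AKT1 and 420 with vector in A549 cells, and 861 and 32.6 in HCC827 cells. It was 4.55-fold higher in A549 and 26.4-fold higher in HCC827, and the HCC827-vector value rests on 41 reads. The 95% intervals of the log2 fold change were 2.04 to 2.33 and 4.27 to 5.22. WIPI1 (ENSG00000070540) lies at chr17:68420948-68457513 on the minus strand of GRCh38, and 24.4% of its exon bases overlap exons of ARSG on the other strand, which had 416 reads with myr-AKT1 and 363 with vector in A549 and 71 and 78 in HCC827. The strand setting of the read counting was not given in the sources used here.

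ULK1, the kinase that starts autophagy, had 1199 with myr-AKT1 and 679 with vector in A549 cells, and 1356 and 230 in HCC827 cells, with log2 fold changes of 0.82 and 2.56. GABARAPL1, of the GABARAP family, had 1622 and 915 in A549 and 2035 and 476 in HCC827 (0.83 and 2.10). MAP1LC3B, the LC3 protein used as the common marker of autophagosomes, had 1469 and 1035 in A549 and 1860 and 652 in HCC827 (0.51 and 1.51). In each of WIPI1, ULK1, GABARAPL1 and MAP1LC3B the HCC827-vector library had the lowest RPKM of the 4 and both myr-AKT1 libraries lay above their vector libraries. Pseudogenes or near copies of MAP1LC3B and GABARAPL1 had at most 15 reads in any library.

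SQSTM1, the cargo receptor p62, went in opposite directions, with 14588 with myr-AKT1 and 23936 with vector in A549 cells, and 8998 and 3899 in HCC827 cells. The log2 fold changes were -0.71 (-0.74 to -0.68) and 1.21 (1.15 to 1.26), and A549-vector cells had the highest RPKM of the 4 libraries (108). BNIP3, a receptor for the autophagy of mitochondria, had 3232 and 1784 in A549 and 3362 and 3943 in HCC827, higher in A549 (0.86) and lower in HCC827 (-0.23). UVRAG, a subunit of a phosphoinositide kinase complex, had 857 and 944 in A549 and 1122 and 746 in HCC827 (-0.14 and 0.59), and its A549 interval ended at -0.0044. Whether the lines differ in these genes cannot be tested with 1 library per condition.

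To compare genes with each other, levels were taken per length, as reads per kilobase of all annotated exons of a gene, scaled to the depth of the library (RPKM). On this scale the 40 genes had a median of 10.2 with myr-AKT1 and 6.49 with vector in A549 and of 14.1 and 7.63 in HCC827, while 15704 genes had medians of 3.98 and 4.15 in A549 and 4.44 and 4.32 in HCC827. PSAP had the highest level in every library, at 478 and 249 in A549 and 342 and 200 in HCC827. SQSTM1 or CTSL came next in A549 and PPT1 in HCC827. The lowest of the 40 were MCOLN1 in A549-myr-AKT1 (0.973), CTSK in A549-vector (0.530) and TFEB in both HCC827 libraries. Together the 40 genes took 0.558% and 0.386% of the reads in A549 with myr-AKT1 and vector, and 0.546% and 0.342% in HCC827. Without PSAP these shares were 0.409%, 0.308%, 0.440% and 0.279%, higher with myr-AKT1 in both lines as well. Genes with long annotated exons, such as CTSZ (19384 bases) and HEXA (15893 bases), read lower on this scale.

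**Figure D4:**
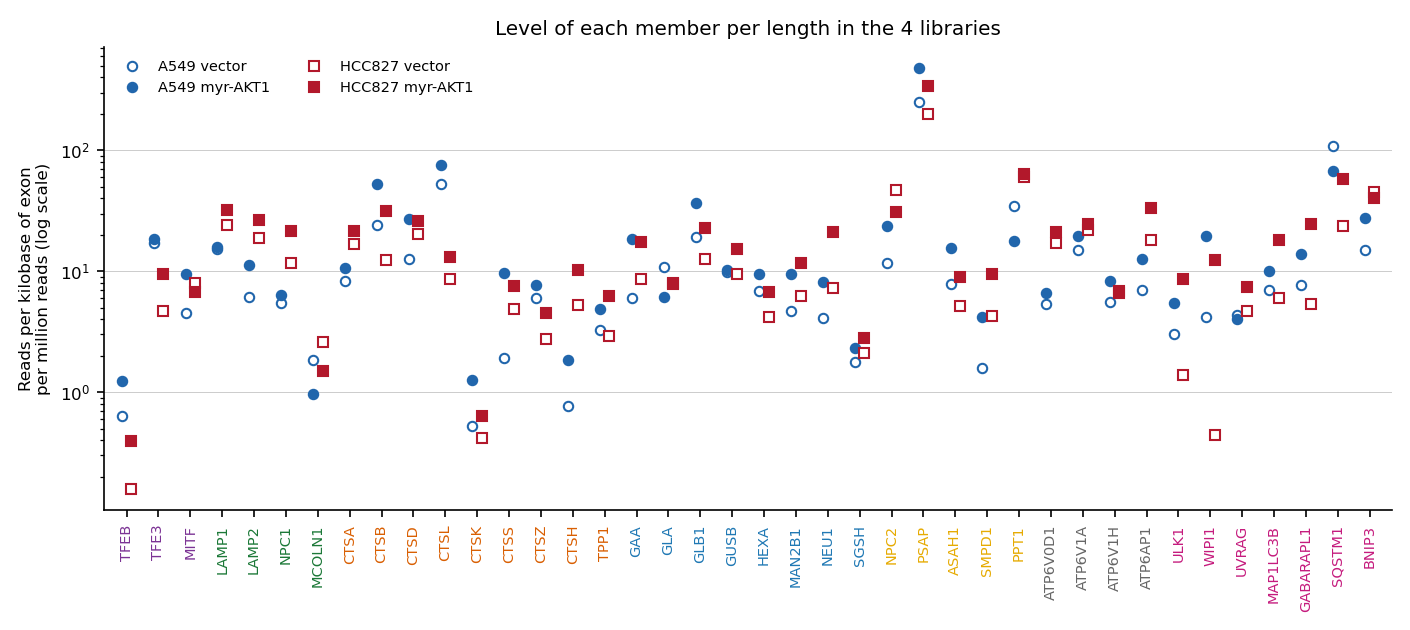
Level of each of the 40 genes in the 4 libraries, in RPKM on a log scale; circles are A549, squares are HCC827, filled symbols are myr-AKT1 and open symbols are vector. PSAP is the highest in each library (200 to 478), and in HCC827 WIPI1 has the widest gap between its symbols.

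The E-box was more frequent in the given promoter windows of these genes than in promoters at large. A link between the site and the fold changes was not tested. A RefSeq window from 250 bases before to 50 after the start was given for 29 of the 40 genes, and 8 of the 29 (27.6%) held CACGTG, which reads the same on both strands. The share was 7.43% of all 27305 windows and 10.04% of the 10904 windows of genes measured in both lines. LAMP1 held 6, of which 1 crosses the start, MCOLN1, CTSA and GAA held 2 each, and CTSD, NEU1, ATP6V0D1 and BNIP3 held 1 each. The longer form, TCACGTG or its complement CACGTGA, which overlaps the first, was in 7 of the 29 (24.1%, against 3.82% of all windows and 5.91% of those of genes measured in both lines). The windows of the 29 genes had a median GC content of 70.0%, against 58.3% of all windows and 65.3% of those of genes measured in both lines.

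Among the 8 genes with the E-box the log2 fold changes centred on a median of 0.59 (A549) and 0.27 (HCC827), the 21 without it 0.82 and 0.83, and the 11 with no window 0.85 and 0.56. Of the promoters printed above, LAMP1 with the most sites had nearly level RNA in A549, MCOLN1 less and GAA more, and WIPI1 held no CACGTG. ULK1, GABARAPL1 and MAP1LC3B had none in their windows either. GTAAACA, a FOXO motif searched on both strands, was in 1 of the 29 windows, that of CTSL (3.45%, against 3.41% of all windows and 2.40% of those of genes measured in both lines). These are letters in a short window, and no binding was measured.

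With earlier results of these data known, 164 genes beyond the 40, of the lysosome, autophagy and the control of TFEB, were listed by role. In A549, 155 of them were measured, with a median of 0.20, 23 more than 2-fold higher (14.8%, near the 15.1% of all genes) and 5 more than 2-fold lower (9.87% of all genes). In HCC827, 156 were measured, with a median of 0.36, 23 more than 2-fold higher (14.7%, near the 14.1% of all genes) and 0 more than 2-fold lower (12.4% of all genes). Other hydrolases and their cofactors had medians of 0.53 and 0.62 and an interval above 0 in 24 of 35 in A549 and 32 of 36 in HCC827. The other V-ATPase subunits had medians of 0.06 and 0.37, the other membrane and sorting proteins 0.22 and 0.35, the other core autophagy genes 0.11 and 0.25, and the other receptors and regulators of autophagy 0.59 and 0.34, with an interval above 0 in 12 of 15 in A549 and 9 of 14 in HCC827. Genes of mTORC1 and the Rag GTPases, which recruit TFEB to the lysosome, had medians of -0.03 and -0.03, the same as or near the median of all genes.

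Of 151 such genes measured in both lines, 8 were more than 2-fold higher in both, near the 4.6% of all genes, and 0 were more than 2-fold lower in both (4.08% of all genes). Of the 160 genes that limma tested it called 6 higher (1.29% of all genes) and 0 lower (1.73%). The largest values were those of DEPP1, a FOXO target that regulates autophagy, with 137 and 9.61 in A549 and 1232 and 109 in HCC827 (3.84 and 3.50 on the log2 scale), where the A549-vector value rests on 11 reads. TP53INP2, which binds LC3 in the nucleus and carries it to forming autophagosomes, had 720 and 84.7 in A549 and 935 and 54.0 in HCC827 (3.09 and 4.11). Its relative TP53INP1 had log2 fold changes of 1.78 and 2.06, and the receptor for autophagy of the endoplasmic reticulum CCPG1 had 1.47 and 1.65. The hydrolases FUCA1, which removes fucose (1.30 and 1.82), GALC, which cleaves galactosylceramide (1.12 and 1.63), and IDUA, which removes iduronic acid (1.43 and 1.32), followed. All of these except IDUA were the genes that limma called. The eighth, LAMP3 (1.52 and 2.66), was below a mean of 50 in A549.

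AKT1 itself had normalized counts of 6297 and 4243 in A549 and of 4805 and 2175 in HCC827, higher in both libraries labelled AKT1. Reads of the construct and of the native gene were not told apart.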

How the data were processed

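RNA from 4 cell populations was sequenced as stranded Illumina libraries, 1 per condition, with ribosomal RNA removed per the labels and poly(A) selection named in the methods of the study. The authors aligned reads to hg38 with Bowtie2, which does not split reads across introns, and counted them per gene with HTSeq. The methods call the values RPKM, but the deposited signal is the number of reads the authors counted over a size factor set for each library. Reads were recovered from it: within 0.001, all values came out whole but 1 in each vector library. Names came from GENCODE 44 (297 of 60558 identifiers were not in it).

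Ratios within a line, on the log2 scale, used the deposited values of genes with a mean of at least 10, with 95% intervals by the Clopper-Pearson method on recovered reads, which are not independent molecules. The fit over both lines used limma 3.58.1 with a trend, Benjamini-Hochberg adjustment and genes kept by filterByExpr. The limma fit was run on simulated data that had the same fold change in both lines. Such data cannot show how the fit behaves where the response differs between lines. The alternatives, edgeR 4.0.16 and DESeq2 1.42.0 on recovered reads, were not run on simulated data. Members and lists were chosen with earlier results of these data known. Any of the 40 genes could be named, with AKT1 and the markers. Up to 10 other listed genes could be named by largest mean fold change. These had to be past 2-fold in both lines with a mean of at least 50 in each. LAMP3, BNIP3L, CTSV, CTSC, CTSF and CTSO were named after their values were seen. No p-value was computed within a line.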

Additional observations from a re-analysis of the deposited data

Results flagged for a closer look

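In A549 and HCC827, 5 of the 40 genes had log2 fold changes on opposite sides of 0, with both counting intervals away from 0. Of all genes measured in both lines, 14.7% had intervals on opposite sides of 0, so the 5 of 40 lie near that share. Of the 151 other listed genes 22 did, and apart from the 40 only BNIP3L is given here. The intervals are those of the deposited values. For the 5 genes and BNIP3L the signs stayed opposite under all 4 scalings of the libraries. MITF had 1.04 in A549 and -0.33 in HCC827. NPC2 had 0.97 in A549 and -0.69 in HCC827. UVRAG had -0.14 in A549, with an interval that ended at -0.0044, and 0.59 in HCC827. The other scalings shift A549 up by 0.022 to 0.10, which takes that interval across 0. Under each of them 4 of the 40 genes, rather than 5, had an interval below 0 in A549. SQSTM1 had -0.71 in A549 and 1.21 in HCC827. BNIP3 had 0.86 in A549 and -0.23 in HCC827, and its relative BNIP3L, also a receptor for the autophagy of mitochondria and named after its values were seen, had 1.09 in A549 and -0.37 in HCC827. For none of them was the difference tested, since 1 library per condition leaves no error for it.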

How the results depend on the processing

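Under other scalings, the values that changed sign were 2 near 0 in HCC827, that of PPT1 (-0.0081 with TMM) and that of ATP6V1H (0.056 with total reads and 0.024 with size factors over all 4 libraries). Against the alternatives, 74 summary values stayed within counting error or 1.5 times and 22 did not, and the same held for 288 and 32 values of single genes. Size factors over all 4 libraries shift A549 by 0.10 on the log2 scale. With them, 16 of the 40 genes were more than 2-fold higher in A549 (16.9% of all genes) and 5 in both lines. At a log2 fold change of 2, the threshold of the study, 2 genes passed in A549 (5.79% of all genes) and 3 in HCC827 (4.65%). Only 1, WIPI1, passed in both. The share of all genes passing in both lines was not computed for these settings. The fit depended most on its settings. Of the 40 genes, edgeR's quasi-likelihood test called 1 higher with TMM and 0 with DESeq2 size factors (18 at an unadjusted p under 0.05), DESeq2's Wald test called 12, limma with a pseudocount of 0.5 called 1, with every gene that had a read 12, and without the cell line block 0 (2 at an unadjusted p under 0.05). Over all 19314 genes, higher and lower calls were 196 and 228 with edgeR and TMM. With edgeR and DESeq2 size factors they were 42 and 57 (3102 genes, 16.1%, at an unadjusted p under 0.05). They were 621 and 518 with DESeq2, where 5243 genes had no adjusted p, and 112 and 191 with the pseudocount of 0.5. Without the block they were 0 and 0 (631 genes, 3.27%, at an unadjusted p under 0.05). With every gene that had a read, 33056 genes were tested, and 1101 were called higher and 894 lower. The looser FOXO motif TGTTTNC was in 4 of 29 windows (13.8%, against 18.1% of all and 12.8% of those of genes measured in both lines). The cause of these changes was not tested. Counting intervals were not recomputed with a pseudocount. Libraries were paired by cell line in the reported limma fit and in no other way, since the labels carry no replicate numbers, and no library could be left out because each condition has 1. Depth limits TFEB, MCOLN1, CTSK and, in HCC827-vector cells, WIPI1.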
